A study of Homo sapiens with 12 samples.

Results

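The effect of AG-205 on gene expression was compared between 2 human endometrial cell lines, as the difference between 2 differences: AG-205 minus DMSO in T-HESC, minus AG-205 minus DMSO in HEC-1A. All 12 libraries of the series entered this comparison, and 28 of the 16132 genes tested were called, of which 27 are described here. HEC-1A is an epithelial line from an endometrial adenocarcinoma, and T-HESC is a telomerase-immortalized stromal line of fibroblastic origin. Both received AG-205 at 15 µM or its vehicle DMSO for 32 h, with 3 libraries in each of the 4 groups, which per the study came from independent culture experiments. Each cell type was represented by a single line, so that cell type, transformation and origin of the line cannot be told apart.

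AG-205 is a small molecule sold as a ligand or inhibitor of PGRMC1, a haem-binding membrane protein of the MAPR family. When sterol in the endoplasmic reticulum is low, the SREBP transcription factors are released and genes of cholesterol synthesis and uptake are transcribed, with INSIG1 acting as a brake on that release. Epithelial and stromal cells of the endometrium express different sets of receptors, matrix proteins and transcription factors, and the same compound can meet different starting levels in them.

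Total counts ranged from 7168542 to 15178276 per library. Libraries of a group varied more in T-HESC than in HEC-1A, with a biological coefficient of variation of 33.6% against 10.1%, and T-HESC AG-205 replicate 1 stood apart from the other 5 T-HESC libraries on the first principal component, at -95.8 against -2.41 to 40.3. The 10 epithelial markers summed to between 1507 and 2300 CPM (counts scaled to a common library total) in HEC-1A and to between 221 and 388 CPM in T-HESC, and the 12 stromal markers summed to between 23.3 and 30.1 CPM in HEC-1A and to between 18697 and 37265 CPM in T-HESC. The labelled types stood out by their own markers, and the immune markers PTPRC, CD3E and LYZ were at 0 in HEC-1A, with the 6 immune markers summing to at most 2.79 CPM in any library. The 6 endothelial markers summed to at most 0.247 CPM in HEC-1A. In T-HESC they summed to 57.9 to 83.9 CPM with DMSO and 38.4 to 90.4 CPM with AG-205, with 1 of the 6 at a mean of at least 1 CPM. Within HEC-1A the epithelial sum was 1507 to 1671 CPM with DMSO and 2222 to 2300 CPM with AG-205, and within T-HESC the stromal sum was 29125 to 37265 CPM and 18697 to 33102 CPM. The part of these shifts in the results was not tested, and in bulk RNA fewer cells of a type and less RNA per cell cannot be told apart.

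A gene was called where the difference of the AG-205 effects exceeded 1 in size on the log2 scale with an adjusted p under 0.05 (edgeR's quasi-likelihood test, Benjamini-Hochberg over all genes tested). The effect was higher in T-HESC for 7 genes (0.0434% of the genes tested) and higher in HEC-1A for 21 genes (0.13%), 28 in all (0.174%). The median difference over all genes was 0.02 under a scaling that itself centres each library, and its median standard error (SE) was 0.417. The 21 genes with a higher effect in HEC-1A included CDKN1A, the cell cycle inhibitor p21, the adaptor SFN, the growth factor GAS6 and its antisense RNA, the cytokine receptor IL21R and the heat shock gene HSPA6. Those with a higher effect in T-HESC included the actin-severing protein SCIN, the protease inhibitor TFPI2, the transcription factor SOX9, the coactivator PPARGC1B, the RNA-binding protein BICC1 and the unnamed long noncoding RNA ENSG00000260196.

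**Figure D1:**
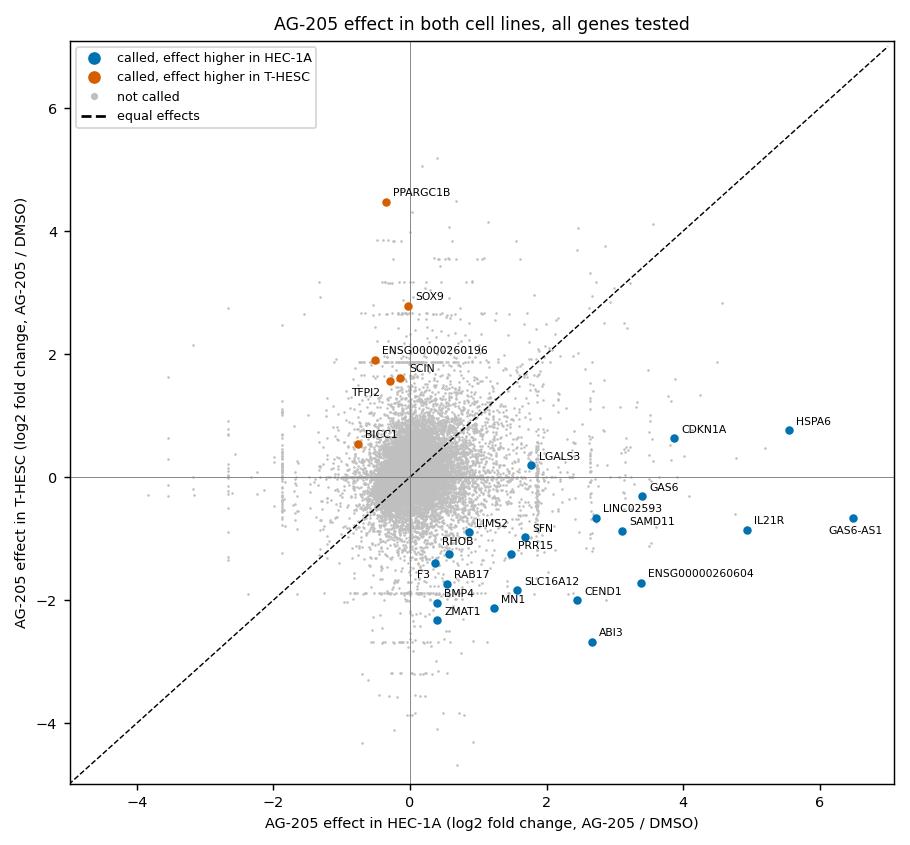
Effect of AG-205 in HEC-1A (horizontal axis) and in T-HESC (vertical axis) as log2 fold changes of AG-205 over DMSO from the fit of 12 libraries, 1 point a gene; the dashed line marks equal effects. The 21 genes called with a higher effect in HEC-1A (blue) lie to the lower right and those with a higher effect in T-HESC (orange, 6 of 7 drawn) to the upper left.

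The 28 genes reached the call in different ways. Within HEC-1A, AG-205 raised 11 of the 28 and lowered none at the same thresholds, where 0.837% of all genes were raised and 0.0372% lowered. Within T-HESC it raised 6 of the 28 and lowered 8, where 0.824% of all genes were raised and 0.167% lowered. PRR15 was the gene among them that passed in both lines, raised in HEC-1A and lowered in T-HESC, and 4 genes (LIMS2, ABI3, SLC16A12 and BICC1) passed in neither line alone. The 2 effects had opposite signs in 25 of the 28 genes, against 45.7% of all genes, and the exceptions were CDKN1A, LGALS3 and HSPA6. The AG-205 and DMSO libraries did not overlap in 24 of the 28 genes in HEC-1A (29% of all genes) and in 24 in T-HESC (10.4% of all genes). They overlapped in neither line for 20 of the 28, against 661 of all 16132 genes tested. A call needs a large difference of these same 2 effects. That choice by itself favours calls within a line, opposite signs and separate groups, so these shares describe the called genes and are no further evidence.

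The number of calls depended on which library was left out. With one HEC-1A DMSO library left out at a time, 0, 1 and 0 genes were called with a higher effect in T-HESC and 6, 8 and 4 with a higher effect in HEC-1A (replicates 1, 2 and 3 in turn). Without each HEC-1A AG-205 library these counts were 0, 1 and 1 and 5, 7 and 11, and without each T-HESC DMSO library they were 1, 2 and 2 and 8, 8 and 9. Leaving out T-HESC AG-205 replicate 1, the library that stood apart, gave 39 and 41 calls (0.491% of the genes tested in that fit) with all 28 genes among them, replicate 2 gave 3 and 10, and replicate 3 gave 15 and 44. GAS6-AS1, IL21R, PRR15 and CDKN1A were called in each of these 12 fits, with an adjusted p of at most 0.0474 (edgeR), GAS6 in 11, SFN in 9, SCIN and SAMD11 in 8, RHOB in 7, ENSG00000260604 in 5, TFPI2 in 4, and the other 17 genes in 1 to 3. The sign of the difference was the same in all 12 fits for all 28 genes. The genes were chosen by a large difference in these same libraries, so a constant sign is no further evidence.

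**Figure D2:**
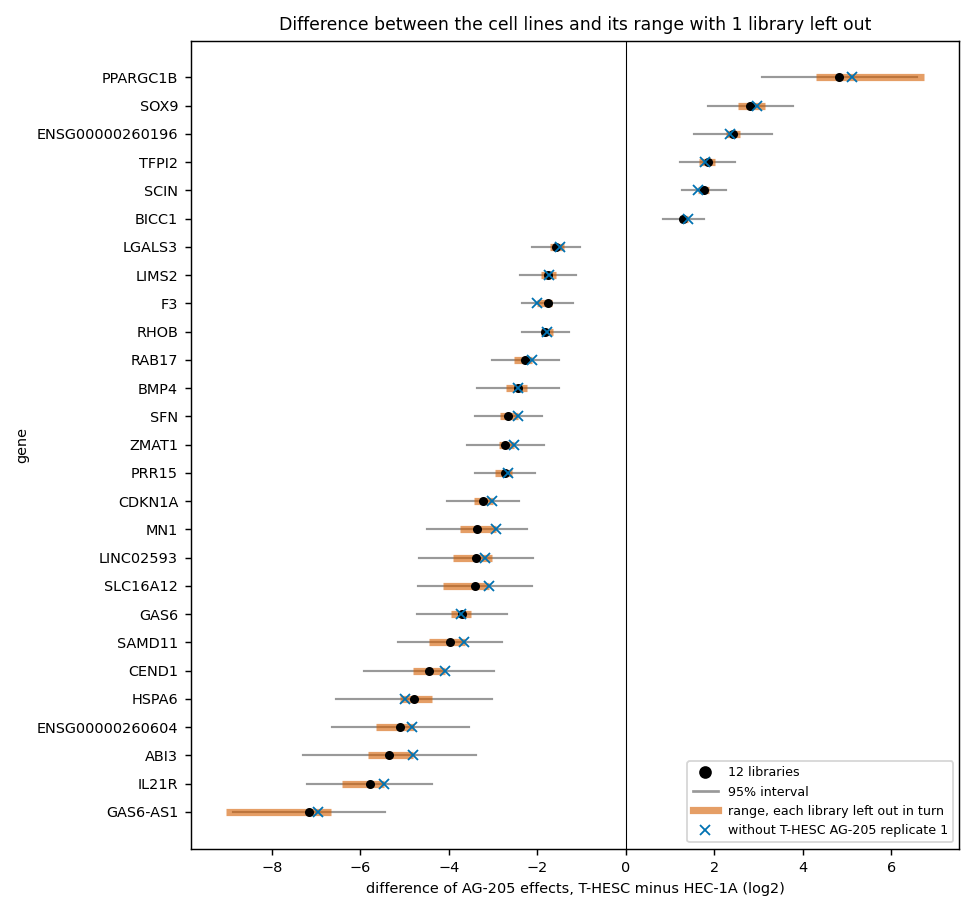
Difference of the AG-205 effects, T-HESC minus HEC-1A, in log2 units for 27 of the 28 called genes (1 row a gene): points, 12 libraries; grey lines, 95% intervals; orange bars, the range with each library left out in turn; crosses, the fit without T-HESC AG-205 replicate 1. The values run from -7.15 for GAS6-AS1 to 4.83 for PPARGC1B. No orange bar reaches 0, for genes chosen by a large difference in these same libraries.

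Among the genes raised in HEC-1A was CDKN1A, whose product p21 inhibits cyclin-dependent kinases and halts the cell cycle. In HEC-1A it was at 1.48, 1.2 and 0.988 CPM with DMSO and at 15.9, 23.4 and 14.6 CPM with AG-205. In T-HESC it was at 461, 432 and 469 CPM with DMSO and at 485, 742 and 883 CPM with AG-205. Every AG-205 library lay above every DMSO library in both lines, but the ratio was 14.6-fold in HEC-1A and 1.55-fold in T-HESC. On the log2 scale the effect was 3.87 ± 0.296 (SE) in HEC-1A against 0.63 ± 0.232 in T-HESC, a difference of -3.23 (95% interval -4.05 to -2.42, edgeR adjusted p = 0.00546). In CPM the order was the other way round, with a gain of 16.7 CPM in HEC-1A and of 249 CPM in T-HESC, where CDKN1A began 8.52 log2 units higher. Its exons share 146 bases (4.87%) with the antisense gene DINOL, and the strand setting of the counting was not given in the sources used here.

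SFN encodes 14-3-3 sigma, an adaptor protein of epithelial cells that holds cell cycle regulators in the cytoplasm. It measured 113, 95.8 and 87.5 CPM in HEC-1A with DMSO and 312, 347 and 289 CPM with AG-205. In T-HESC the values were 1.05, 1.49 and 1.80 CPM with DMSO and 0.457, 0.828 and 0.848 CPM with AG-205. The groups did not overlap in either line and moved apart in opposite directions. The log2 fold change was 1.68 ± 0.189 in HEC-1A, where SFN was called as raised, and -0.98 ± 0.295 in T-HESC, which did not pass (adjusted p = 0.169, edgeR). The difference was -2.66 (95% interval -3.42 to -1.90, edgeR adjusted p = 0.0115), and its adjusted p ran from 0.00601 to 0.0585 with single libraries left out and was 0.421 with limma's voom, where SFN was not called.

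Of the 13 genes listed for p53-type arrest, CDKN1A and SFN were those called (2 of 13, against 0.174% of all genes), both with a higher effect in HEC-1A, and 6 members lay above 0 and 7 below. The median difference of the list was -0.05, beside 0.02 over all genes. MDM2, the ligase that degrades p53, had an effect of 0.21 log2 units in HEC-1A against 0.16 in T-HESC, and BBC3, a pro-apoptotic BCL2 family member, one of 0.92 against 0.64. GDF15, a secreted stress cytokine whose name was chosen here after its values were seen, lay on the other side, with a mean of 707 CPM with DMSO and 1076 CPM with AG-205 in HEC-1A and of 30.3 and 187 CPM in T-HESC. Its difference of 2.02 (95% interval 1.22 to 2.83) did not pass (edgeR adjusted p = 0.0653). GDF15 was called with DESeq2 (2.02, adjusted p = 2.69e-04) and with voom (1.93, adjusted p = 0.0153), where SFN was not called with voom.

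GAS6, the secreted ligand of the receptor kinases TYRO3, AXL and MERTK, is transcribed from chr13:113820549-113864076 (GRCh38, minus strand), and its antisense RNA GAS6-AS1 from chr13:113815630-113845744 on the plus strand. GAS6 was at 0.329, 0.239 and 0.180 CPM in HEC-1A with DMSO and at 2.66, 2.44 and 3.23 CPM with AG-205. In T-HESC it measured 567, 526 and 396 CPM with DMSO and 413, 271 and 519 CPM with AG-205. The HEC-1A groups were far apart at a low level, whereas the T-HESC groups overlapped at a high one. AG-205 went with a log2 fold change of 3.40 ± 0.400 in HEC-1A against -0.31 ± 0.227 in T-HESC, a difference of -3.71 (95% interval -4.72 to -2.70, edgeR adjusted p = 0.0109).

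GAS6-AS1 had 0, 0 and 1 counts in the 3 HEC-1A DMSO libraries, and 3.55, 4.73 and 1.92 CPM with AG-205. It was at 6.10, 5.72 and 5.69 CPM in T-HESC with DMSO and at 2.56, 4.67 and 3.82 CPM with AG-205, with no overlap in either line. Over the pooled HEC-1A libraries 132 counts stood against 1, a ratio of 130 with an exact 95% interval of 22.8 to 5154 that covers counting error only. The fitted difference of -7.15 (SE 0.791, edgeR adjusted p = 0.00546) rests on that single count. The exons of the 2 genes share 421 bases, which is 5.87% of the exon length of GAS6-AS1 and 7.00% of that of GAS6, so without a known strand setting their reads in the shared part cannot be told apart.

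IL21R, the receptor of interleukin-21 on lymphocytes, was at 0.0822, 0.159 and 0.180 CPM in HEC-1A with DMSO, from 1, 2 and 2 counts, and at 4.37, 5.32 and 3.95 CPM with AG-205. In T-HESC it was at 4.89, 4.06 and 4.09 CPM with DMSO and at 1.19, 3.99 and 1.95 CPM with AG-205. The groups were separate in both lines, and with AG-205 HEC-1A reached the level T-HESC had with DMSO. Pooled counts in HEC-1A gave a ratio of 33.2 (169 against 5 counts, exact 95% interval 13.9 to 103, counting error only). The log2 fold change was 4.93 ± 0.525 in HEC-1A against -0.86 ± 0.365 in T-HESC, and the latter did not pass (adjusted p = 0.402). The difference was -5.79 (95% interval -7.20 to -4.37, edgeR adjusted p = 0.00546). The lymphocyte genes PTPRC and CD3E were at 0 in all HEC-1A libraries. In T-HESC, PTPRC had a mean of 1.42 CPM with DMSO and 0.38 CPM with AG-205, and the 6 immune markers summed to between 2.50 and 2.79 CPM with DMSO and to between 0.677 and 1.19 CPM with AG-205, so that both these markers and IL21R were lower with AG-205. The part of immune RNA in its values was not tested, and IL21R-AS1 on the other strand covers 23.3% of the exon length of IL21R.

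SAMD11, a nuclear protein with a SAM domain, and the long noncoding RNA LINC02593 lie 2907 bases apart on chromosome 1, on opposite strands. SAMD11 rose in HEC-1A from 0.822, 1.28 and 0.359 CPM to 7.92, 6.21 and 7.55 CPM, and was at 129, 108 and 95.5 CPM with DMSO and 30.5, 70.7 and 80.4 CPM with AG-205 in T-HESC. LINC02593 rose in HEC-1A from 0.493, 0.239 and 0.180 CPM to 2.39, 2.29 and 1.44 CPM, and was at 48.3, 26.4 and 25.3 CPM and then 14.2, 23.5 and 25.5 CPM in T-HESC. Both neighbours were thus low in HEC-1A and high in T-HESC, and the T-HESC groups overlapped for LINC02593 and not for SAMD11. Their differences were -3.97 (95% interval -5.16 to -2.79, adjusted p = 0.0148) and -3.39 (-4.66 to -2.11, adjusted p = 0.0489, edgeR for both). LINC02593 lost its call when genes under a mean of 1 CPM in either line were removed (adjusted p = 0.0704, with 0.0253 to 0.222 when single libraries were left out), and SAMD11 shares 8.94% of its exon length with NOC2L.

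LGALS3, which encodes galectin-3, a lectin that binds beta-galactosides, rose in HEC-1A from 3.37, 3.35 and 3.50 CPM to 10.2, 10.5 and 14.6 CPM. In T-HESC the values were 118, 108 and 107 CPM with DMSO and 111, 147 and 123 CPM with AG-205. The T-HESC groups overlapped, and the log2 fold change was 1.78 ± 0.189 in HEC-1A against 0.19 ± 0.165 in T-HESC. The difference was -1.58 (95% interval -2.13 to -1.04, edgeR adjusted p = 0.0298). As for CDKN1A, the gain in CPM was smaller in HEC-1A, at 8.35 CPM, than in T-HESC, at 15.9 CPM, where the gene began 5.02 log2 units higher.

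HSPA6, a heat shock protein of the HSP70 family that is nearly silent without stress, was at 0.740, 0.558 and 0.449 CPM in HEC-1A with DMSO and at 28.0, 41.2 and 14 CPM with AG-205. In T-HESC it was at 0.301, 0.663 and 0.399 CPM with DMSO and at 1.01, 0.978 and 0.339 CPM with AG-205. HSPA6 began at a like level in both lines, with a baseline log2 ratio of -0.36 that did not pass (adjusted p = 0.639), and its T-HESC groups overlapped. Its log2 fold change was 5.55 ± 0.484 in HEC-1A, where the AG-205 libraries themselves spanned 14 to 41.2 CPM, and 0.76 ± 0.596 in T-HESC. The difference was -4.79 (95% interval -6.56 to -3.02, edgeR adjusted p = 0.0435), with an adjusted p of 0.0278 to 0.291 with single libraries left out and of 0.470 with voom, so that the call was lost.

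PRR15, a small proline-rich protein, rose in HEC-1A and fell in T-HESC. Its HEC-1A values were 9.95, 8.53 and 8.44 CPM with DMSO and 22.7, 26.4 and 25.9 CPM with AG-205. In T-HESC they were 3.84, 2.57 and 3.10 CPM and 1.19, 1.66 and 1.10 CPM. Neither line had overlapping groups, and a gap between the lines that was already present with DMSO widened, from -1.50 to -4.23 on the log2 scale (T-HESC over HEC-1A). The log2 fold change was 1.48 ± 0.201 in HEC-1A against -1.26 ± 0.242 in T-HESC, a difference of -2.73 (95% interval -3.41 to -2.05, edgeR adjusted p = 0.00546). With voom PRR15 had an adjusted p of 0.0866 and was not called, against at most 0.0474 with single libraries left out in edgeR.

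The last of the 11 genes raised in HEC-1A was the long noncoding RNA ENSG00000260604 on chromosome 6. It rose from 0.164, 0.319 and 0.0898 CPM to 2.32, 2.29 and 1.68 CPM there, and was at 0.527, 0.414 and 0.799 CPM with DMSO and 0.0915, 0.150 and 0.254 CPM with AG-205 in T-HESC. The T-HESC AG-205 values are 6 counts in all against 20 with DMSO, a ratio of 0.295 (exact 95% interval 0.0968 to 0.761, counting error only). The difference was -5.10 ± 0.715 (edgeR adjusted p = 0.0166), and it was not called with voom (adjusted p = 0.0866, and 0.0116 to 0.110 with single libraries left out).

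**Figure D3:**
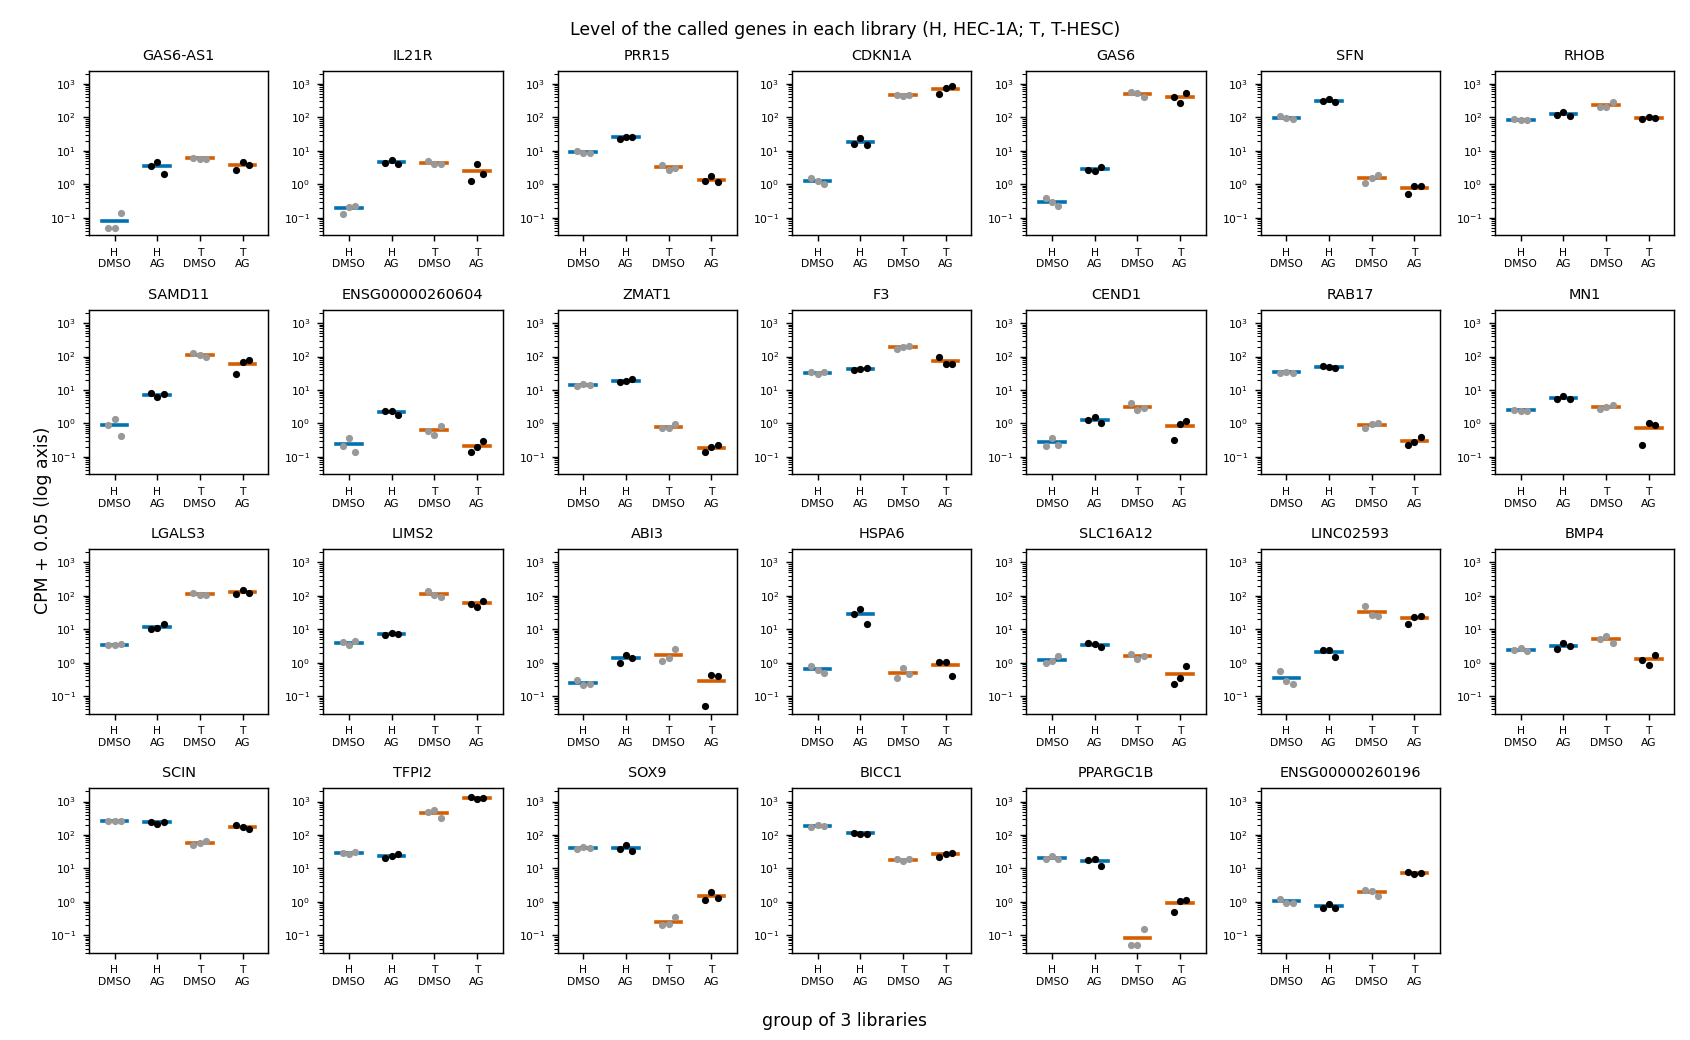
Level of 27 of the 28 called genes in every library, as CPM plus 0.05 on a log axis; points are libraries (grey, DMSO; black, AG-205) and bars the means of 3 libraries (blue, HEC-1A; orange, T-HESC). The first 21 panels are the genes with a higher effect in HEC-1A, and CDKN1A, GAS6, SAMD11 and LGALS3 show the pattern of a low HEC-1A level that rose towards a high T-HESC level.

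The promoters of these genes were searched because some of them belong to stress-inducible families with known promoter motifs. For 20 of the 28 genes a RefSeq promoter (GRCh38.p14, from 250 bases before to 50 after the start) was at hand. The AP-1 motif TGANTCA stood in 4 of these 20, SFN, F3, HSPA6 and TFPI2, and in 7.71% of all 35116 promoters of that length, and the heat shock element (GAA, any 2 bases, TTC, any 2 bases, GAA) in HSPA6 and in 0.490% of all promoters, on either strand for both. The sterol element (ATCAC, any base, CCAC) and the E-box CACGTG were in none of the 20 windows, against 0.154% and 7.26% of all, and TGATGNAA, the CARE motif of the integrated stress response, in IL21R and in 3.62% of all. The 4 promoters with an AP-1 motif follow, 5′ to 3′ on the strand of the gene, because they belong to genes that moved in 3 different ways (raised in HEC-1A, lowered in T-HESC and raised in T-HESC), with AP-1 motifs and the heat shock element in capitals. HSPA6 is on the plus strand (chr1:161524290-161524589), SFN on the plus strand (chr1:26862899-26863198), F3 on the minus strand (chr1:94541710-94542009) and TFPI2 on the minus strand (chr7:93890704-93891003).
HSPA6: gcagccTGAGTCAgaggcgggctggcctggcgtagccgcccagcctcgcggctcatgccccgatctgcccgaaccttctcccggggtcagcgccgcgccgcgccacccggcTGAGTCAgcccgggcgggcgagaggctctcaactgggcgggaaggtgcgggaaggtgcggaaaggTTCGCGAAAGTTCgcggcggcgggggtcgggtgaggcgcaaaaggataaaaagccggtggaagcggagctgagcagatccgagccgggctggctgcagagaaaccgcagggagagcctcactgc
SFN: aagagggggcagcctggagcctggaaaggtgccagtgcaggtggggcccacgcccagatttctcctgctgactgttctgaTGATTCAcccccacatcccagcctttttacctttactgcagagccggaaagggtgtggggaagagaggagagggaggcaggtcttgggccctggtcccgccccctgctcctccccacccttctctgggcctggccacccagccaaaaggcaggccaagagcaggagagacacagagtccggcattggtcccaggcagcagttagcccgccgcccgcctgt
F3: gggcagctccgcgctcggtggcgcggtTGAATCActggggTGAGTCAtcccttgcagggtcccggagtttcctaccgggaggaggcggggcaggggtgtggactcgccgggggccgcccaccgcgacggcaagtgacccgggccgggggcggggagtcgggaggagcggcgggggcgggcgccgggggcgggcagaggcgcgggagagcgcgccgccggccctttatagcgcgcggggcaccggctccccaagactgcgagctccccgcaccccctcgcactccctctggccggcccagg
TFPI2: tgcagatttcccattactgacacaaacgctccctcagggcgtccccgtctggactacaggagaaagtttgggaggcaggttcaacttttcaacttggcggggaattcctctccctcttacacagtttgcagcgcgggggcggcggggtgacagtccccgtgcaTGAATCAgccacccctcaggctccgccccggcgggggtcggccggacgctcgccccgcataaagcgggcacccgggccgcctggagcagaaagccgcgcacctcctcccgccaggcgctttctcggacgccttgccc
The first base of the heat shock element of HSPA6 lay at -74 relative to the start and its AP-1 motifs at -244 and -139. The motif of SFN began at -170, those of F3 at -223 and -210, and that of TFPI2 at -87. A shared motif thus went with effects of both directions, and a match is a description of the letters in the window and not a measured binding site.

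Among the 8 genes lowered in T-HESC was RHOB, a small GTPase of endosomes and the actin cytoskeleton. It was at 205, 197 and 284 CPM in T-HESC with DMSO and at 88.9, 103 and 95 CPM with AG-205. In HEC-1A it was at 87.0, 82.6 and 83.5 CPM with DMSO and at 121, 145 and 109 CPM with AG-205. The groups were separate in both lines and crossed over, so that T-HESC was above HEC-1A with DMSO and below it with AG-205. The log2 fold change was -1.26 ± 0.174 in T-HESC and 0.57 ± 0.172 in HEC-1A, where it did not pass (adjusted p = 0.246). The difference was -1.83 (95% interval -2.36 to -1.30, edgeR adjusted p = 0.0128).

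F3 encodes tissue factor, the cell surface starter of coagulation that endometrial stromal cells make in the secretory phase. It measured 169, 191 and 210 CPM in T-HESC with DMSO and 95.1, 59.1 and 61.2 CPM with AG-205, and 33.9, 30.8 and 34.1 CPM in HEC-1A with DMSO and 39.3, 43.1 and 44.6 CPM with AG-205. Tissue factor mRNA fell to 0.378 of its DMSO level in T-HESC, with AG-205 replicate 1 the highest of the 3, while the HEC-1A ratio of 1.28 did not pass. The difference was -1.76 (95% interval -2.34 to -1.19, edgeR adjusted p = 0.0267), and -2.02 without T-HESC AG-205 replicate 1.

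BMP4, a ligand of the TGF-beta superfamily, was at 4.89, 6.13 and 3.89 CPM in T-HESC with DMSO and at 1.19, 0.828 and 1.61 CPM with AG-205. In HEC-1A the groups overlapped, at 2.30, 2.63 and 2.16 CPM and 2.59, 3.77 and 2.99 CPM. Its log2 fold change was -2.04 ± 0.308 in T-HESC and 0.40 ± 0.294 in HEC-1A, with a difference of -2.44 (95% interval -3.36 to -1.51, edgeR adjusted p = 0.0489). The call was lost with voom (adjusted p = 0.193) and under the 1 CPM minimum (0.0601), and the exons of BMP4 share 16.3% of their length with an antisense gene. BMP2, the related ligand that marks decidualizing stroma, did not pass in either line, with a difference of 1.78 (95% interval 0.07 to 3.50, adjusted p = 0.758).

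MN1, a transcriptional regulator, was at a like level in both lines with DMSO, at 2.56, 3.15 and 3.40 CPM in T-HESC and 2.55, 2.31 and 2.33 CPM in HEC-1A. With AG-205 it was at 0.183, 0.978 and 0.848 CPM in T-HESC and at 5.26, 6.5 and 5.15 CPM in HEC-1A. The lines thus parted from a shared level, with a log2 fold change of -2.13 ± 0.396 in T-HESC that passed and of 1.23 ± 0.342 in HEC-1A that did not (adjusted p = 0.185). The difference was -3.36 (95% interval -4.50 to -2.22, edgeR adjusted p = 0.0298), and -2.94 without T-HESC AG-205 replicate 1, the lowest of the 12 libraries.

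The other 4 genes lowered in T-HESC were PRR15, described above, RAB17, ZMAT1 and CEND1. RAB17, a Rab GTPase of polarized epithelial cells, was at 33.3, 35.4 and 32.6 CPM in HEC-1A with DMSO and at 50.6, 50.2 and 46.4 CPM with AG-205, and at 0.678, 0.912 and 0.999 CPM and then 0.183, 0.226 and 0.339 CPM in T-HESC. An epithelial gene near its detection limit in stroma therefore had a lower level still with AG-205, with a difference of -2.27 (95% interval -3.02 to -1.52, edgeR adjusted p = 0.0267). ZMAT1, a zinc finger protein, was at 0.678, 0.663 and 0.899 CPM in T-HESC with DMSO and at 0.0915, 0.150 and 0.170 CPM with AG-205, or 26 against 5 counts in all (ratio 0.189, exact 95% interval 0.0566 to 0.50, counting error only). Its HEC-1A level was 14.2 ± 0.708 CPM (SD, n = 3) with DMSO and 18.8 ± 1.80 CPM with AG-205, and the difference was -2.73 (edgeR adjusted p = 0.0249).

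CEND1, a protein of neurons that leave the cell cycle, was at 3.92, 2.49 and 2.90 CPM in T-HESC with DMSO and at 0.274, 0.903 and 1.10 CPM with AG-205. It was at 0.164, 0.319 and 0.180 CPM in HEC-1A with DMSO and at 1.23, 1.55 and 0.958 CPM with AG-205. The lines were apart with DMSO and overlapped with AG-205, and the difference was -4.45 (95% interval -5.92 to -2.98, edgeR adjusted p = 0.0267). With voom, RAB17 and ZMAT1 were not called (adjusted p = 0.418 and 0.346), and with single libraries left out their adjusted p ran from 0.0218 to 0.111 and from 0.0253 to 0.103.

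LIMS2, ABI3 and SLC16A12 had a higher effect in HEC-1A without passing both thresholds in either line. LIMS2, which encodes the focal adhesion adaptor PINCH2, was at 4.19, 3.35 and 4.31 CPM in HEC-1A with DMSO and at 6.69, 7.61 and 7.19 CPM with AG-205, and at 134, 102 and 91.3 CPM and then 57.8, 47.3 and 71.3 CPM in T-HESC. Its libraries were separate in both lines, but the log2 fold changes of 0.86 and -0.89 were each below 1 in size. The difference was -1.75 (95% interval -2.38 to -1.12, edgeR adjusted p = 0.0405), with an adjusted p of 0.0526 under the 1 CPM minimum.

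ABI3, a partner of the WAVE actin regulators, had 3, 2 and 2 counts in HEC-1A with DMSO and measured 0.956, 1.63 and 1.32 CPM with AG-205, a ratio of 6.59 (exact 95% interval 2.96 to 17.3, counting error only). In T-HESC it was at 1.05, 1.33 and 2.60 CPM with DMSO and at 0, 0.376 and 0.339 CPM with AG-205. Its difference of -5.34 ± 0.899 (edgeR adjusted p = 0.0407) came from log2 fold changes of -2.68 in T-HESC and 2.67 in HEC-1A, and its exons share 5.77% of their length with GNGT2.

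SLC16A12, a membrane transporter of the monocarboxylate transporter family, started level at 0.905, 1.04 and 1.53 CPM in HEC-1A and 1.81, 1.24 and 1.5 CPM in T-HESC. With AG-205 it was at 3.82, 3.55 and 2.87 CPM in HEC-1A and at 0.183, 0.301 and 0.763 CPM in T-HESC, with no overlap. The difference was -3.41 (95% interval -4.69 to -2.13, edgeR adjusted p = 0.0474), and 0.131 was its adjusted p with voom, against 0.0164 to 0.205 with single libraries left out.

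Among the 6 genes raised in T-HESC was SCIN, an actin-severing protein of the gelsolin family that was at 49.1, 56.4 and 64.3 CPM in T-HESC with DMSO and at 202, 172 and 146 CPM with AG-205. In HEC-1A it was at 262, 266 and 262 CPM with DMSO and at 244, 219 and 252 CPM with AG-205. T-HESC thus came close to the HEC-1A level, from a gap of -2.22 with DMSO to one of -0.46 with AG-205 on the log2 scale. Its log2 fold change was 1.62 ± 0.164 in T-HESC and -0.15 ± 0.160 in HEC-1A, a difference of 1.76 (95% interval 1.27 to 2.26, edgeR adjusted p = 0.0115).

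TFPI2, a Kunitz-type inhibitor of serine proteases that is secreted into the matrix, was at 474, 541 and 311 CPM in T-HESC with DMSO and at 1397, 1195 and 1318 CPM with AG-205. It was at 29.1, 27.7 and 30.9 CPM in HEC-1A with DMSO and at 20.3, 24.2 and 27.4 CPM with AG-205. The rise of 2.95-fold in T-HESC widened a baseline gap of 3.92 log2 units, since the HEC-1A ratio of 0.819 did not pass. TFPI2 and F3, which both bear on the coagulation protease factor VIIa, moved in opposite directions in T-HESC. The difference for TFPI2 was 1.85 (95% interval 1.22 to 2.48, edgeR adjusted p = 0.0298), and it was not called with upper-quartile scaling (adjusted p = 0.0535).

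SOX9, a transcription factor of epithelial progenitors and cartilage, was at 39.0, 42.6 and 39.4 CPM in HEC-1A with DMSO and at 37.1, 48.8 and 32.3 CPM with AG-205. In T-HESC it had 2, 2 and 3 counts with DMSO, and 1.10, 1.88 and 1.27 CPM with AG-205. The T-HESC groups were separate at a level far below that of HEC-1A, and the pooled counts, 52 against 7, gave a ratio of 7.29 (exact 95% interval 3.30 to 19.0, counting error only). The difference was 2.82 (95% interval 1.85 to 3.78, edgeR adjusted p = 0.0298), with an adjusted p of 0.382 with voom and of 0.0120 to 0.151 with single libraries left out.

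PPARGC1B encodes PGC-1beta, a coactivator that drives mitochondrial genes and also binds SREBP proteins. It was at 18.8, 23.5 and 19.4 CPM in HEC-1A with DMSO and at 17.4, 19.0 and 11.9 CPM with AG-205, with overlapping groups. In T-HESC it had 0, 0 and 1 counts with DMSO and 0.457, 0.978 and 1.10 CPM with AG-205. The pooled T-HESC counts were 31 against 1, a ratio of 30.4 (exact 95% interval 5.07 to 1241, counting error only). The fitted difference of 4.83 ± 0.808 (edgeR adjusted p = 0.0407) rests on that count, was called in 1 of the 12 fits with a library left out (adjusted p from 0.0108, without T-HESC AG-205 replicate 1, to 0.190) and was not called with voom (adjusted p = 0.191).

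BICC1, an RNA-binding protein, had a higher effect in T-HESC without passing both thresholds in either line. It was at 173, 204 and 187 CPM in HEC-1A with DMSO and at 114, 110 and 109 CPM with AG-205, and at 19.3, 16.3 and 18.5 CPM and then 22, 27.8 and 28.8 CPM in T-HESC. The libraries were separate in both lines, in opposite directions, with log2 fold changes of -0.76 ± 0.147 and 0.54 ± 0.151. The difference was 1.30 (95% interval 0.84 to 1.76, edgeR adjusted p = 0.0351), with an adjusted p of 0.0866 with voom and of 0.00219 to 0.153 with single libraries left out. The long noncoding RNA ENSG00000260196 was at 2.18, 2.07 and 1.4 CPM in T-HESC with DMSO and at 7.68, 6.62 and 7.12 CPM with AG-205, and at 1.15, 0.877 and 0.898 CPM and then 0.614, 0.813 and 0.599 CPM in HEC-1A. Its groups were separate in both lines, and its difference of 2.42 (edgeR adjusted p = 0.0407) was lost with upper-quartile scaling (0.0579) and with voom (0.0502).

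Most of the 28 genes already differed between the lines with DMSO. At baseline 15 were higher in T-HESC (22.1% of all genes) and 9 were lower (22.2% of all genes), and the other 4, MN1, HSPA6, SLC16A12 and ENSG00000260196, were not called (44.3% of all genes were called in either direction). The last of these had an adjusted p of 0.0118 for a baseline log2 ratio of 0.95, which is under 1. In 10 of the 28 the HEC-1A mean with DMSO was under 1 CPM, against 17.8% of all genes, and in 6 the T-HESC mean was, against 18.2%. In 7 of the 28 each library of some group had at most 3 counts, against 15.5% of all genes.

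With AG-205 the log2 gap between the lines was narrower in 17 of the 28 genes and wider in 11, where it narrowed for 48.2% of all genes, and the gap with DMSO and the difference share the DMSO libraries. For GAS6-AS1 the gap closed from 7.25 to 0.10 and for IL21R it went from 4.86 to -0.92. It shrank for GAS6 from 10.89 to 7.18 and for CDKN1A from 8.52 to 5.29, both of which stayed far higher in T-HESC. The gap instead widened for SFN, from -6.10 to -8.76, for RAB17, from -5.29 to -7.56, and for TFPI2, from 3.92 to 5.77. Stated as a change in CPM instead of a ratio, an alternative added after the data were seen, the direction of the difference was opposite for 2 of the 28 genes, CDKN1A and LGALS3, against 13.8% of all genes.

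**Figure D4:**
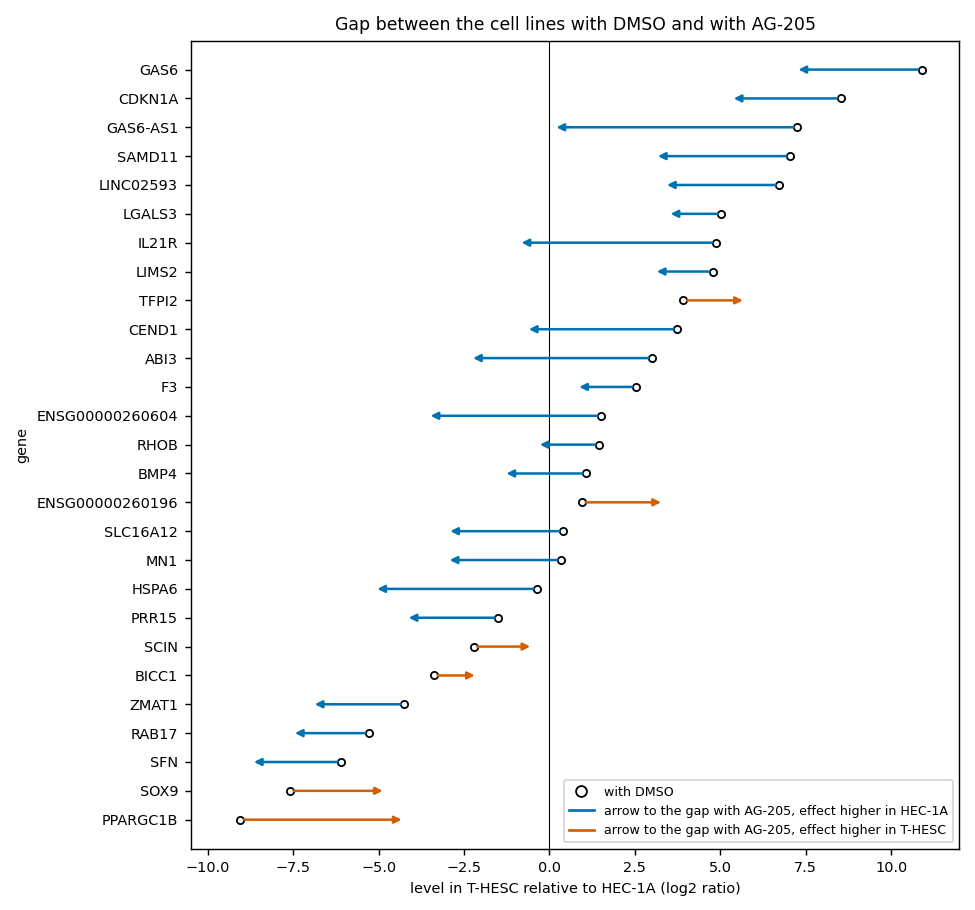
Level in T-HESC relative to HEC-1A, as a log2 ratio, for 27 of the 28 called genes: open circles with DMSO, arrow heads with AG-205, blue where the effect was higher in HEC-1A and orange where it was higher in T-HESC. The gap narrows in some genes, as in GAS6-AS1 (7.25 to 0.10), and widens in others, as in SFN (-6.10 to -8.76).

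In the 21 gene lists described here, 17 of pathways and 4 of cell types, CDKN1A and SFN were the called members. Beside the counts per list below, 1025 of all 16132 genes had an unadjusted p under 0.05 in edgeR. DESeq2 called 0.538% of all genes. Without the filter on low counts edgeR called 21 more listed genes, where it called 0.403% of all genes, and DESeq2 or voom called 7 of those 21. In that fit the prior degrees of freedom were infinite, against 4.34 with the filter, so that each gene was given the spread of the trend in place of its own. Of the 21 enzymes of cholesterol biosynthesis 18 rose in HEC-1A (0.837% of all genes did) and 18 in T-HESC (0.824%), with median log2 fold changes of 1.99 and 2.41. In edgeR none of the 21 was called for a difference between the lines (0.174% of all genes were), 3 had an unadjusted p under 0.05, and DESeq2 and voom called none either, with a median difference of 0.17. TM7SF2, a sterol reductase, had the lowest p, with means of 15.6 and 174 CPM in HEC-1A and 5.17 and 17.4 CPM in T-HESC and a difference of -1.75 (95% interval -2.74 to -0.75, edgeR adjusted p = 0.313), and was the enzyme that edgeR called without the filter on low counts (-1.71, adjusted p = 0.000485). SQLE, the squalene epoxidase, followed on the other side with 0.82 (0.34 to 1.30, edgeR adjusted p = 0.340).

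The genes on which the study centred had intervals that limit how far the lines could differ. INSIG1 rose from 34.5, 32.6 and 35.8 CPM to 304, 369 and 288 CPM in HEC-1A and from 122, 147 and 85.6 CPM to 1059, 1191 and 896 CPM in T-HESC. All AG-205 libraries lay far above their controls in both lines, and the difference was -0.07 (95% interval -0.69 to 0.55), with a sign that changed with the library left out. For MSMO1, the methylsterol monooxygenase, it was 0.68 (-0.05 to 1.41), and for HSD17B7, a reductase of cholesterol and oestrogen synthesis, 0.43 (-0.22 to 1.08). None of the 4 MAPR genes was called with edgeR, DESeq2 or voom, and none had an unadjusted p under 0.05. The difference was 0.34 (-0.16 to 0.83) for PGRMC1, -0.59 (-1.38 to 0.20) for PGRMC2, 0.33 (-0.61 to 1.27) for NENF and -0.44 (-1.0 to 0.12) for CYB5D2. These intervals do not show that the lines respond alike, and those of MSMO1, HSD17B7, PGRMC2 and NENF reach a difference of more than 1 in size.

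Sterol sensing and uptake held 15 tested genes, of which edgeR, DESeq2 and voom called none and 1 had an unadjusted p under 0.05, with a median difference of -0.08. NPC1, the lysosomal cholesterol exporter, was at 43.9, 271 and 190 CPM in T-HESC with AG-205 and had a difference of 1.68 (95% interval 0.22 to 3.14, edgeR adjusted p = 0.697). Without T-HESC AG-205 replicate 1, the lowest of these, it was 2.14 and called (adjusted p = 0.0165, the lowest of the 12 fits with a library left out). ERG28, a scaffold of the sterol enzymes, had -0.40 (-0.86 to 0.06). Fatty acid synthesis and desaturation held 15 genes, of which edgeR called none and 4 had an unadjusted p under 0.05, with a median of -0.02. DESeq2 called 3 of them and voom 2, against 0.538% of all genes with DESeq2 and 25 of 16132 with voom. Without T-HESC AG-205 replicate 1, edgeR called 4 genes of the list, against 0.491% of all genes. ACSS2, which makes acetyl-CoA from acetate, was at 16.8, 17.1 and 13.7 CPM in HEC-1A with DMSO and at 220, 241 and 189 CPM with AG-205, and at 37.7, 35.6 and 39.8 CPM and then 43.2, 130 and 110 CPM in T-HESC. T-HESC AG-205 replicate 1 was again near its controls, and the difference of -2.45 (-3.39 to -1.50, adjusted p = 0.0543) just missed the threshold. ACSL1, an acyl-CoA synthetase, had a difference of -2.02 (-2.97 to -1.08, adjusted p = 0.141). With low counts left in, edgeR called NPC1 (1.73, adjusted p = 1.19e-04), ACSS2, ACSL1 and SCD.

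In the stress lists edgeR called no gene, while 52.1% of all genes lay above 0. Of 12 chaperones and unfolded protein response genes 9 lay below 0, with a median of -0.42, led by HSPA5, the chaperone BiP (-0.99, edgeR adjusted p = 0.340), and the disulphide isomerase PDIA4 (-0.69, 0.397). Of 17 genes of the integrated stress response 11 lay above 0, with a median of 0.41, led by CEBPB (1.33, adjusted p = 0.411) and TRIB3 (1.07, 0.495), of which CEBPB also headed the 8 tested decidualization genes (median 0.33, 2 with an unadjusted p under 0.05, no call by the 3 tools). Of 15 lysosomal genes 14 lay above 0, with a median of 0.24, among them the protease CTSB (0.79, 0.231) and the autophagy receptor SQSTM1 (1.30, 0.418). Among 13 hypoxia and glycolysis genes NDRG1 had -1.54 (0.158) and HK2, the first enzyme of glycolysis, 1.44 (0.399). Between 3 and 5 genes of each of these 4 lists had an unadjusted p under 0.05, and DESeq2 called 1 hypoxia gene, NDRG1, with none called by voom. Without T-HESC AG-205 replicate 1, TRIB3 (1.30, edgeR adjusted p = 0.0338) and SQSTM1 (1.59, 0.00601) were called. Without the filter on low counts edgeR called CEBPB (1.36, adjusted p = 0.0118), CHAC1 (1.44, 0.00647), SQSTM1 (1.34, 0.0142), NDRG1 (-1.52, 0.00192) and HK2 (1.47, 0.00315). In the AP-1, KLF and early response list of 17 genes KLF2 had -2.0 (0.101), with a T-HESC fall from 95.1, 88.7 and 153 CPM to 49.9, 56.4 and 44.4 CPM, and the phosphatase DUSP5 1.08 (0.287). In that list 5 genes had an unadjusted p under 0.05, and DESeq2 called KLF2 and DUSP5 and voom none, and edgeR without the filter called KLF2, IER3 and FOSB.

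The matrix and proteolysis list held 16 tested genes, of which edgeR called none, 2 had an unadjusted p under 0.05 and DESeq2 and voom called PLAT, with a median of -0.13. PLAT, tissue plasminogen activator, was at 1.73, 1.35 and 1.17 CPM in HEC-1A with DMSO and at 9.35, 8.87 and 7.91 CPM with AG-205, and at 337, 228 and 151 CPM and then 136, 205 and 306 CPM in T-HESC. It rose in HEC-1A (log2 fold change 2.61 ± 0.383) and overlapped in T-HESC, and its difference of -2.76 (95% interval -3.82 to -1.70) just missed the threshold (edgeR adjusted p = 0.0542). PLAUR, the urokinase receptor, rose in HEC-1A by 1.72 ± 0.242 and had a log2 fold change of 0.78 ± 0.179 in T-HESC, a difference of -0.94 (adjusted p = 0.498). Of 14 proliferation genes, 12 NRF2 targets, 11 lipid droplet genes, 16 steroid-converting enzymes and 16 cytokines and chemokines edgeR, DESeq2 and voom called none, with medians of 0.19, 0.07, -0.11, 0.22 and 0.65 and 1 unadjusted p under 0.05, among the steroid-converting enzymes. Of the cell type lists, the 10 epithelial markers had a median of -0.73 with 8 below 0 (3 with an unadjusted p under 0.05), the 12 stromal markers one of -0.32 with 9 below 0, and 2 immune markers and 1 endothelial marker were tested, with no call by the 3 tools in any of them. The median half-width of the 95% interval was 3.25 for the cytokines and chemokines, against 0.906 over all genes. ICAM1, an adhesion molecule of that list, was at 178, 147 and 12.9 CPM in T-HESC with DMSO and at 93.5, 19.1 and 1018 CPM with AG-205, so libraries of a group lay far apart also at high levels. Without the filter on low counts edgeR called ICAM1 (1.99, adjusted p = 2.12e-06, with an SE of 0.328 against 1.49), LIF (1.93, 1.0e-05) and CXCL8 (2.43, 0.00423) in that list, AKR1C1 (1.4, 0.00983) and AKR1C2 (1.77, 0.00303) among the steroid-converting enzymes, of which AKR1C1 is also an NRF2 target, and KRT18 among the epithelial markers. HSD17B14, a hydroxysteroid dehydrogenase, rose in both lines (1.43 and 2.31), with a difference of 0.88 (0.19 to 1.57, adjusted p = 0.612).

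**Figure D5:**
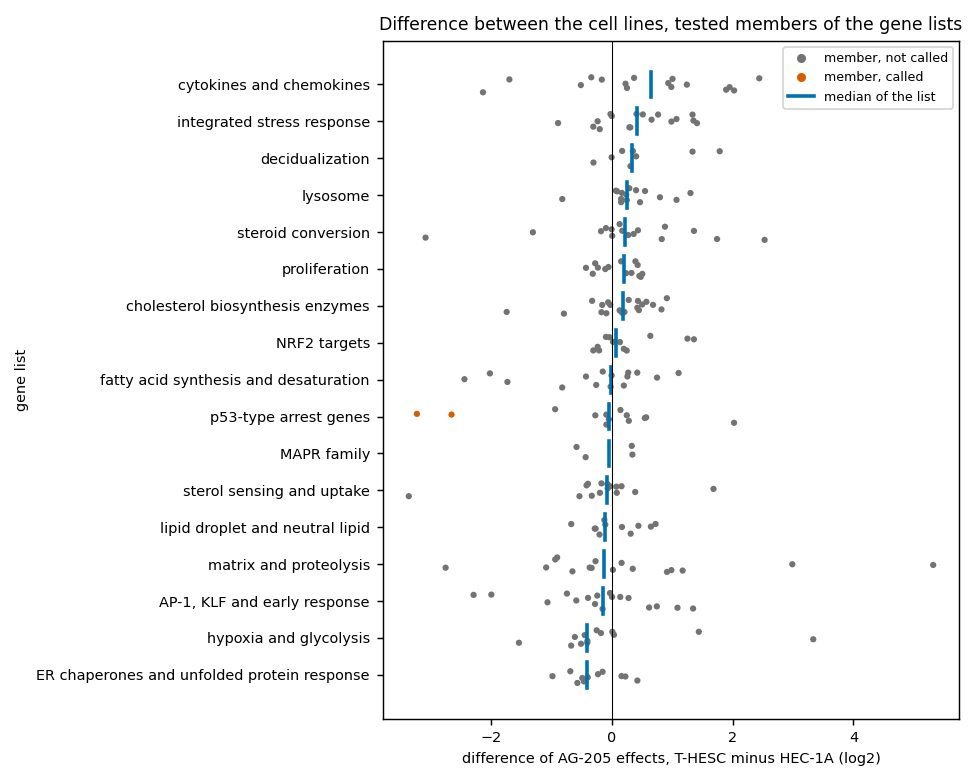
Difference of the AG-205 effects, T-HESC minus HEC-1A, in log2 units for each tested member of 17 pathway lists (1 row a list); blue bars are medians and orange points the called genes. Called members are CDKN1A and SFN (p53-type arrest), both at the left, and the cholesterol enzymes lie around a median of 0.17.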

How the data were processed

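RNA was sequenced from 12 cultures of HEC-1A and T-HESC. The authors selected polyA RNA, trimmed the paired reads (Trimmomatic 0.38), mapped them on GRCh38 (HISAT2 2.1.0), counted them per Ensembl gene with featureCounts of Subread 2.0.0, and deposited whole-number counts without normalization. How strand and multiply mapped reads were treated is not given in the sources used here. Of 58735 genes, 528 had no matching symbol and are named by their Ensembl ID.

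The fit used R 4.3.3 and edgeR 4.0.16 (TMM scaling, filterByExpr by group, quasi-likelihood test with 4 group means), which left 16132 genes. The difference of effects, the effect within each line and the baseline difference came from this single fit, so the within-line effects share 1 estimate of the spread over both lines. Libraries varied more in T-HESC than in HEC-1A, so within-line SEs can be too small in T-HESC and too large in HEC-1A. Calls within a line can thus be too liberal in T-HESC and too strict in HEC-1A. Benjamini-Hochberg adjustment ran over all genes tested. Each edgeR SE was worked back from the test, as the size of the log2 value divided by the square root of its F statistic. The 95% intervals were built from that SE with a t quantile. For genes near the floor they can be narrower than the uncertainty of the counts. Levels are CPM of the TMM-scaled totals, 7168542 to 15178276 counts before scaling, with the SD over 3 libraries. A gene with at most 3 counts in each library of a group counted as lying at the floor, and its ratio is given from pooled counts with an exact 95% interval. The fit was also run on simulated data with differences of known size set into well-counted genes. That run checked the median size of the edgeR estimates for those genes. It set no limit on false calls and does not bear on genes with few counts. Libraries were grouped by their labels, and pairs within a group differed by 1.79 to 207 chi-square units per degree of freedom, so none was a copy of another.

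The rule for named genes took every called gene, or the 20 with the smallest p where more passed in a direction, and BMP4, the 21st in HEC-1A's direction, was added. From each of 22 gene lists the called members and the 2 with the smallest p were named, together with INSIG1, MSMO1, HSD17B7 and the MAPR family. Any other gene named was picked with its values in view. The members and lists were chosen with earlier results of these data known, and no set test was run. For 1 called gene, and the list that holds it, results are not reported here. Gene positions came from GENCODE 44 and promoters from RefSeq. The alternatives were DESeq2 1.42.0, RLE and upper-quartile scaling, no filter, a mean of at least 1 CPM in both lines, limma 3.58.1 voom with quality weights per group, robust dispersions, no fold limit, a replicate block, a threshold of 0.01 on the adjusted p and each library left out; changes in CPM were added later. Python 3.11.15 with matplotlib 3.10.9 drew the plots.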

Additional observations from a re-analysis of the deposited data

Results flagged for a closer look

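The 27 called genes below were taken up here because the test of the difference itself, edgeR's interaction contrast over 12 libraries, set the AG-205 effects in the 2 lines apart. The values are T-HESC minus HEC-1A on the log2 scale. Among the genes raised in HEC-1A they were -7.15 for GAS6-AS1, -5.79 for IL21R, -5.10 for ENSG00000260604, -4.79 for HSPA6, -3.97 for SAMD11, -3.71 for GAS6, -3.39 for LINC02593, -3.23 for CDKN1A, -2.73 for PRR15, -2.66 for SFN and -1.58 for LGALS3. The other genes lowered in T-HESC had -4.45 for CEND1, -3.36 for MN1, -2.73 for ZMAT1, -2.44 for BMP4, -2.27 for RAB17, -1.83 for RHOB and -1.76 for F3. LIMS2 at -1.75, ABI3 at -5.34, SLC16A12 at -3.41 and BICC1 at 1.30 passed in neither line alone.

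Genes raised in T-HESC had differences of 4.83 for PPARGC1B, 2.82 for SOX9, 2.42 for ENSG00000260196, 1.85 for TFPI2 and 1.76 for SCIN. The calls of GAS6-AS1, IL21R, PRR15 and CDKN1A held in 12 of 12 fits with a library left out. With 3 libraries in each group, no formal test for a single outlying library was run.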

How the results depend on the processing

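The call counts depended on the tool, on the filter and on the libraries. The sign of the difference was the same for all 28 genes in every setting on the log2 scale that tested them. Choosing the genes by a large difference in these same libraries favours a constant sign. Calls with a higher effect in T-HESC and in HEC-1A, 7 and 21 above, numbered 29 and 57 with DESeq2 and 54 and 87 without the filter on low counts, each with all 28 among them (the fit without the filter took the spread of each gene from the trend), and 4 and 10 with a mean of at least 1 CPM in both lines, which tested 17 of the 28 and called 14. Upper-quartile scaling gave 4 and 23 (25 of the 28 called), so that 14.8% of the calls were higher in T-HESC against 25% with TMM, and an adjusted p under 0.01 gave 0 and 4. With voom, 6 and 19 genes were called, 16 of them among the 28. RLE size factors, robust dispersions and no fold limit gave 7 and 21. With single libraries left out the counts ran from 0 to 39 and from 4 to 44.

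With the replicate number as a block, edgeR called 0 and 0 genes, with 779 at an unadjusted p under 0.05 against 1025 without the block, while DESeq2 and voom without a block called those given above. Which libraries share a culture experiment is not given in the sources used here. Deviations of same-numbered AG-205 and DMSO libraries correlated at -0.06, 0.18 and -0.00 in HEC-1A. In T-HESC they correlated at 0.21, -0.43 and -0.03. With 3 libraries in each group, these values cannot show whether the numbers pair the samples.

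With single libraries left out, the difference ran from -2.74 to 1.05 for IL1A, from -0.34 to 2.46 for LIF, from -0.18 to 0.54 for NENF and from -0.25 to 0.12 for INSIG1. The sign changed for IL1A without T-HESC DMSO replicate 2 (1.05), for LIF without T-HESC AG-205 replicate 3 (-0.34), for NENF without T-HESC AG-205 replicate 1 (-0.18) and for INSIG1 without HEC-1A AG-205 replicate 2 (0.04), T-HESC DMSO replicate 2 (0.12) or T-HESC AG-205 replicate 3 (0.03). Of these 4, LIF was called by edgeR with low counts left in (1.93, adjusted p = 1.0e-05) and the others in no setting. Stated in CPM, the difference was 233 for CDKN1A and 7.52 for LGALS3, opposite in sign to their log2 values. The cause of the other shifts was not tested. At this depth 7 of the 28 genes have a group with at most 3 counts in each library, and their fitted differences are less certain than their counts.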

Other observations

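Several genes outside the 28 lay close to the threshold and were called under other settings. PLAT and ACSS2, with adjusted p of 0.0542 and 0.0543 in edgeR, were called with DESeq2 (adjusted p = 1.54e-04 for both), with voom, with low counts left in and without T-HESC AG-205 replicate 1, with differences of -2.52 and -2.10 in the last of these. GDF15 was called by edgeR without T-HESC AG-205 replicate 1 (2.33, adjusted p = 1.10e-04) and with low counts left in (2.06, adjusted p = 8.48e-07). It was also called with DESeq2 (2.02, adjusted p = 2.69e-04) and with voom (1.93, adjusted p = 0.0153). Its T-HESC AG-205 libraries were at 100, 220 and 241 CPM, against 30.6, 26.7 and 33.7 CPM with DMSO, and its HEC-1A libraries at 1075, 1081 and 1070 CPM against 748, 681 and 691 CPM.

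SCD, the stearoyl-CoA desaturase, rose in both lines, from 46.4, 55.5 and 55.3 CPM to 1229, 1450 and 1049 CPM in HEC-1A and from 172, 169 and 200.3 CPM to 684, 1684 and 1492 CPM in T-HESC, with T-HESC AG-205 replicate 1 the lowest. Its difference of -1.73 did not pass (edgeR adjusted p = 0.177), and was -1.43 without that library (adjusted p = 0.0110). KRT18, an epithelial keratin, was at 357 and 395 CPM on average in HEC-1A with DMSO and AG-205, and at 188, 165 and 111 CPM and then 99.3, 25.9 and 42.7 CPM in T-HESC, where no overlap was seen. Its difference was -1.61 (adjusted p = 0.536) and -2.32 without T-HESC AG-205 replicate 1 (adjusted p = 0.00601). GDF15, SCD and KRT18 were chosen after their values were seen.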
